A study of Homo sapiens with 8 samples.

Results

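The genes described here are 40 genes of protein folding in the endoplasmic reticulum (ER) and of the unfolded protein response. They were chosen by name for their roles, with earlier results of these data known. All 40 were found among the 37526 gene names listed for every library of RNA-seq from NB4 cells, an acute promyelocytic leukemia (APL) cell line, and the question was how they behaved when the cells were treated with all-trans retinoic acid (ATRA), which drives them towards granulocytes, and when KDM3B, a histone H3K9 demethylase, was silenced. There were 4 groups with 2 libraries each. The scramble and shKDM3B groups were NB4 cells without ATRA, stably carrying a lentiviral control or an shRNA against KDM3B, and the scramble+ATRA and shKDM3B+ATRA groups were the same cells with ATRA. The vector was pLVX-shRNA2-puro in all 4 groups, and the labels call the control an empty vector where the paper describes a scrambled shRNA. The labels give 1 µM ATRA for 24 or 48 h without saying which time a library had, and the paper's methods name a different unit of concentration. Which shRNA was used is not stated, nor whether the 2 libraries of a group came from separate cultures, so the tests measure only the spread between these libraries.

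The ER is where secreted, lysosomal and membrane proteins enter the secretory pathway. Proteins pass through the SEC61 channel, lose their signal peptide, are folded by chaperones and disulphide isomerases, and are sent back to the cytosol for degradation (ER-associated degradation, ERAD) if folding fails. When unfolded proteins accumulate, the sensors IRE1 (ERN1), PERK (EIF2AK3) and ATF6 switch on the unfolded protein response, in which ATF6 and the spliced form of XBP1 raise the transcription of chaperone genes, partly through the ER stress response element (ERSE) in their promoters. Promyelocytes make large amounts of granule proteins such as myeloperoxidase (MPO), all of which are folded in the ER. In the deposited counts, spliced and unspliced XBP1 mRNA were not told apart.

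RefSeq promoters of GRCh38.p14, reaching from 250 bases before to 50 bases after a start, were matched by symbol for 36 members, some with several starts. They are shown for 5 genes with an ERSE (CALR, PDIA6, CRELD2, XBP1 and HSPA5) and for HYOU1, because 5 of the 6 are among the genes whose level differed with ATRA and HSPA5 is the best known target of the response. Each is written along the gene's own strand. Capitals mark the ERSE, searched as CCAAT and CCACG 9 bases apart on both strands, or in HYOU1 the core of the unfolded protein response element, TGACGTGG.
CALR (chr19:12938359-12938658, plus strand): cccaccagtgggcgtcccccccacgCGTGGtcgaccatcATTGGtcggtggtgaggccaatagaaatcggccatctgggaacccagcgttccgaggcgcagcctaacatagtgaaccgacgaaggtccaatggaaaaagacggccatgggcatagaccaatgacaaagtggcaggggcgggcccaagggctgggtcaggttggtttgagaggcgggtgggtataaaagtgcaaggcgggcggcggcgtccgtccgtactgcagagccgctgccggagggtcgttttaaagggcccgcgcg
PDIA6 (chr2:10812736-10813035, minus strand): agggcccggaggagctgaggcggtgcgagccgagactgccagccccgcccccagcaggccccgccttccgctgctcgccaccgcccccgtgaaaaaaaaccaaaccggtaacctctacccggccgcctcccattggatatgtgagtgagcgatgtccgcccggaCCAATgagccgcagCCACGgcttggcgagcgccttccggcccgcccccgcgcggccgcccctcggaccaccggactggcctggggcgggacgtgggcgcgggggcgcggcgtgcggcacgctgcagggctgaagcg
CRELD2 (chr22:49918384-49918683, plus strand): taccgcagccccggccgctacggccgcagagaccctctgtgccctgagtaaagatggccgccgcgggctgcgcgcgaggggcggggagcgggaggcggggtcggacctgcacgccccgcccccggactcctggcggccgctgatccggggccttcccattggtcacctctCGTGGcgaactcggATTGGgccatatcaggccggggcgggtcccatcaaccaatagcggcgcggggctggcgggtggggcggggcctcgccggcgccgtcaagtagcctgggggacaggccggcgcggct
XBP1 (chr22:28800520-28800819, minus strand): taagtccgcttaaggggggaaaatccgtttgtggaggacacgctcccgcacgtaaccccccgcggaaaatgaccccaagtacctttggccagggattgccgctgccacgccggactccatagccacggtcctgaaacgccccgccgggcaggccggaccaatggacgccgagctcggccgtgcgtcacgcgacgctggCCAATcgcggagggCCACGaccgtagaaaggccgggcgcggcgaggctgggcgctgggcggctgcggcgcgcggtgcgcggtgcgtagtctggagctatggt
HSPA5 (chr9:125241294-125241593, minus strand): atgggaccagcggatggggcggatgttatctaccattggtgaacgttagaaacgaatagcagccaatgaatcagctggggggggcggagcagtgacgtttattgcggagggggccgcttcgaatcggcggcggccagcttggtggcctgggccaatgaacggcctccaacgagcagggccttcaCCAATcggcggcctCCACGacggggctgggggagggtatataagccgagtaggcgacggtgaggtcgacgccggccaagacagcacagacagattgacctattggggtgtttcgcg
HYOU1 (chr11:119057156-119057455, minus strand): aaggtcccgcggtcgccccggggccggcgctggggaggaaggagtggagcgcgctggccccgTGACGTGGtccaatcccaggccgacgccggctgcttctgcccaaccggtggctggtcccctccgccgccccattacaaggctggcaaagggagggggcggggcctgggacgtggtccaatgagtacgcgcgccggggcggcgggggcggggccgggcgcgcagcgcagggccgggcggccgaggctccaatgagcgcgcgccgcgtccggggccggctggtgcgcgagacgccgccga
An exact ERSE lay in the promoter of 7 of the 36 matched members (19.4%), namely CALR, CANX, CRELD2, HSP90B1, HSPA5, PDIA6 and XBP1, and of 25 of all 27305 genes of the table (0.0916%). The 5-letter parts were common, with CCAAT in 39.7% and CCACG in 42.1% of all genes, and each ERSE also counts as a match to both. HSP90B1 was the member with 2 ERSEs in its window. TGACGTGG, which contains the reverse complement of CCACG, was found on either strand in HYOU1 and SSR3 and in 0.927% of all genes. TGATGNAA, the core of the C/EBP-ATF element, was found in HERPUD1 and in 4.46% of all genes. A match describes the letters of the window and is not a measured binding site.

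Between 9708739 and 33017787 counts fell on genes per library. The share of reads outside annotated genes was 8.49 to 9.62% in the 4 untreated libraries and 9.36% in scramble+ATRA replicate 1, against 50 to 51.4% in scramble+ATRA replicate 2 and both shKDM3B+ATRA libraries. In shKDM3B cells this share and the treatment cannot be told apart, and its part in the results below was not tested. The untreated files list 56470 gene names and the treated files 56609, of which 37526 are shared. Every comparison across ATRA therefore sets counts made on different gene lists beside each other, in both cell types, and this and the treatment cannot be told apart. KDM3B was at 187 and 188 counts in every 1000000 (CPM) in scramble, 76.4 and 86.2 in shKDM3B, 196 and 121 in scramble+ATRA and 52.5 and 57.4 in shKDM3B+ATRA. The 9 promyelocyte markers summed to 4861 and 5943 CPM in scramble, most of it MPO, while the granule proteases ELANE, PRTN3 and AZU1 were at most 1.01 CPM there. With ATRA 3 of the 7 tested promyelocyte markers fell (42.9%) and 2 rose (28.6%) in scramble cells, beside 10.8% and 15.0% of all tested genes. All 5 differentiation markers rose, from sums of 491 and 460 to 9454 and 8527 CPM. In shKDM3B cells these 5 rose from 343 and 353 to 4008 and 4694 CPM. Of 8 markers of other cell types 2 passed the filter, MS4A1 and HBB were at 0, and the 8 summed to between 17.5 and 26.9 CPM in every library. CPM were scaled with the trimmed mean of M values (TMM) over all 8 libraries, whereas each fold change came from the fit of its own pair of groups, so that the 2 can differ slightly.

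NB4 cells expressed nearly all of the listed ER genes. Of the 40 members, 38 passed the low-count filter in every comparison. The exceptions were DERL3, an ERAD channel protein with 0 counts in all libraries and 77.0% of its exon length overlapped by exons of the opposite strand, and WFS1, an ER membrane protein of calcium handling, with 1 count in scramble+ATRA replicate 1, both at or under the 3 counts that a count of 0 allows. Levels of different genes were compared per kilobase of exon, with the length taken over all annotated exons of a gene. This length was 2802 bases for CALR, 11132 for P4HB, 19153 for ERN1 and 20691 for EIF2AK3, so the order depends partly on the annotation. In scramble cells CALR, which encodes the calcium-binding lectin chaperone calreticulin, led the list with 1064 and 1446 CPM per kb, 1255 ± 270 (SD, n = 2). The next levels per kb were those of P4HB (143 ± 15.8), a protein disulphide isomerase, and HSPA5 (130 ± 4.84), the ER Hsp70 chaperone BiP, which did not separate from each other in the 2 libraries. PDIA6, HSP90B1 (the ER Hsp90, GRP94), CANX (the membrane-bound lectin calnexin) and PDIA4 followed at 107 to 101 CPM per kb, none of them separated from the next in the order. Of the sensors ATF6 was at 5.24 ± 0.316 CPM per kb. EIF2AK3 at 0.806 ± 0.0646 and ERN1 at 0.358 ± 0.0419 CPM per kb were the lowest of the 38 tested members by this measure. They separated from each other and from all the genes above them. Without the division by length, EIF2AK3 (mean 16.7 CPM) was above DNAJB9 (7.48) and SDF2L1 (14.1), while CALR still led with a mean of 3518 CPM.

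With ATRA, scramble cells had less mRNA of CALR, PDIA6, PDIA4, HYOU1 and CRELD2, and more of DNAJC3, EDEM1 and SSR2. Calls required an unadjusted P-value under 0.05 in edgeR's quasi-likelihood test together with at least a 1.5-fold difference, the thresholds of the study. Of the 38 tested members, 5 fell and 3 rose. Over all 12429 tested genes the share called was 10.8% lower and 15.0% higher, and 5 and 3 of 38 members are 13.2% and 7.89%. At a Benjamini-Hochberg adjusted p under 0.05 and the same fold, 1 member was lower and 2 were higher, against 5.06% and 7.84% of all genes. The median log2 fold change was 0.07 over the members and 0.02 over all tested genes, and with library size alone as scaling -0.02 and -0.08. With library size alone as scaling, the split was 6 lower and 2 higher, XBP1 joining the lower members and SSR2 leaving the higher ones, while the calls over all genes went from 1866 higher and 1347 lower to 1617 and 1688. The members did not move together: by sign alone, 16 were lower and 22 higher.

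CALR fell most. It was at 2982.5 and 4053 CPM in the scramble libraries and at 1121 and 1233 CPM in scramble+ATRA. Both treated libraries lay far below both untreated ones. The fall was 2.92-fold, a log2 fold change of -1.54 ± 0.22 (SE), with an edgeR adjusted p of 0.00471. CALR lies on chromosome 19 (hg38, chr19:12938578-12944489, plus strand), and 9.64% of its exon length overlaps annotated exons of the opposite strand. It stayed called when any of the 4 libraries was left out, with log2 fold changes between -1.78 and -1.32, and was -1.64 without scramble+ATRA replicate 2.

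The other 4 members that fell also act in folding. PDIA6, a disulphide isomerase, was at 437 and 442 CPM in scramble and at 242 and 276 with ATRA, a log2 fold change of -0.73 ± 0.20 (SE) with an edgeR adjusted p of 0.06. PDIA4, another isomerase, was at 267 and 400 CPM against 227 and 173, a log2 fold change of -0.71 ± 0.27 with an edgeR adjusted p of 0.139. The groups did not overlap for either gene, but the 2 scramble libraries differed more for PDIA4 than for PDIA6. HYOU1, an Hsp70-like exchange factor for BiP, was at 242 and 359 CPM in scramble and 212 and 152 with ATRA, a log2 fold change of -0.69 ± 0.27 with an edgeR adjusted p of 0.156. CRELD2, a secreted isomerase-like protein induced by ER stress, was at 20.2 and 23.1 CPM in scramble and 13.1 and 11.3 with ATRA, a log2 fold change of -0.79 ± 0.26 with an edgeR adjusted p of 0.0959. These groups did not overlap either, and relative to its level the gap was narrowest for HYOU1. None of the 4 passed at an adjusted p under 0.05. Leaving out scramble replicate 1 ended the calls of PDIA6 (-0.76), CRELD2 (-0.92) and HYOU1 (-0.98), each through a higher P-value. Leaving out scramble replicate 2 ended the calls of PDIA6 (-0.73), CRELD2 (-0.71), PDIA4 (-0.40) and HYOU1 (-0.39). Without scramble+ATRA replicate 2, which leaves only libraries with a low share of reads outside genes, PDIA6 (-0.85) and CRELD2 (-0.72) kept their calls, and PDIA4 (-0.55) and HYOU1 (-0.50) lay under 1.5-fold. In PDIA6, 25.2% of the exon length overlaps exons of the opposite strand, and in HYOU1 9.77%.

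Of the 3 members that rose, DNAJC3 encodes a BiP co-chaperone that also inhibits the kinase PERK. It was at 85.3 and 77.7 CPM in scramble and at 126 and 167 with ATRA. The groups did not overlap, and the rise was 1.84-fold, a log2 fold change of 0.88 ± 0.23 (SE) with an edgeR adjusted p of 0.0477. EDEM1, a mannose-trimming lectin that marks misfolded glycoproteins for ERAD, was at 58.9 and 69.5 CPM in scramble and 106 and 123 with ATRA. These groups were apart too, by more than the spread within either, and the rise was 1.83-fold, a log2 fold change of 0.87 ± 0.21 with an edgeR adjusted p of 0.0399. SSR2, a subunit of the translocon-associated protein complex that assists the SEC61 channel, was at 196 and 186 CPM in scramble and 276 and 293 with ATRA. It rose 1.52-fold, a log2 fold change of 0.61 ± 0.20 with an edgeR adjusted p of 0.0958, just over the fold threshold. Without scramble replicate 1 the calls of DNAJC3 (0.92), EDEM1 (0.72) and SSR2 (0.62) ended, and without scramble replicate 2 those of DNAJC3 (0.80) and SSR2 (0.56). Without scramble+ATRA replicate 2, DNAJC3 (0.63) and EDEM1 (0.73) stayed called and SSR2 (0.54) did not. SSR2 was also under 1.5-fold with library size alone (0.51), with no low-count filter (0.56) and with all 8 libraries in one fit (0.57).

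**Figure D1:**
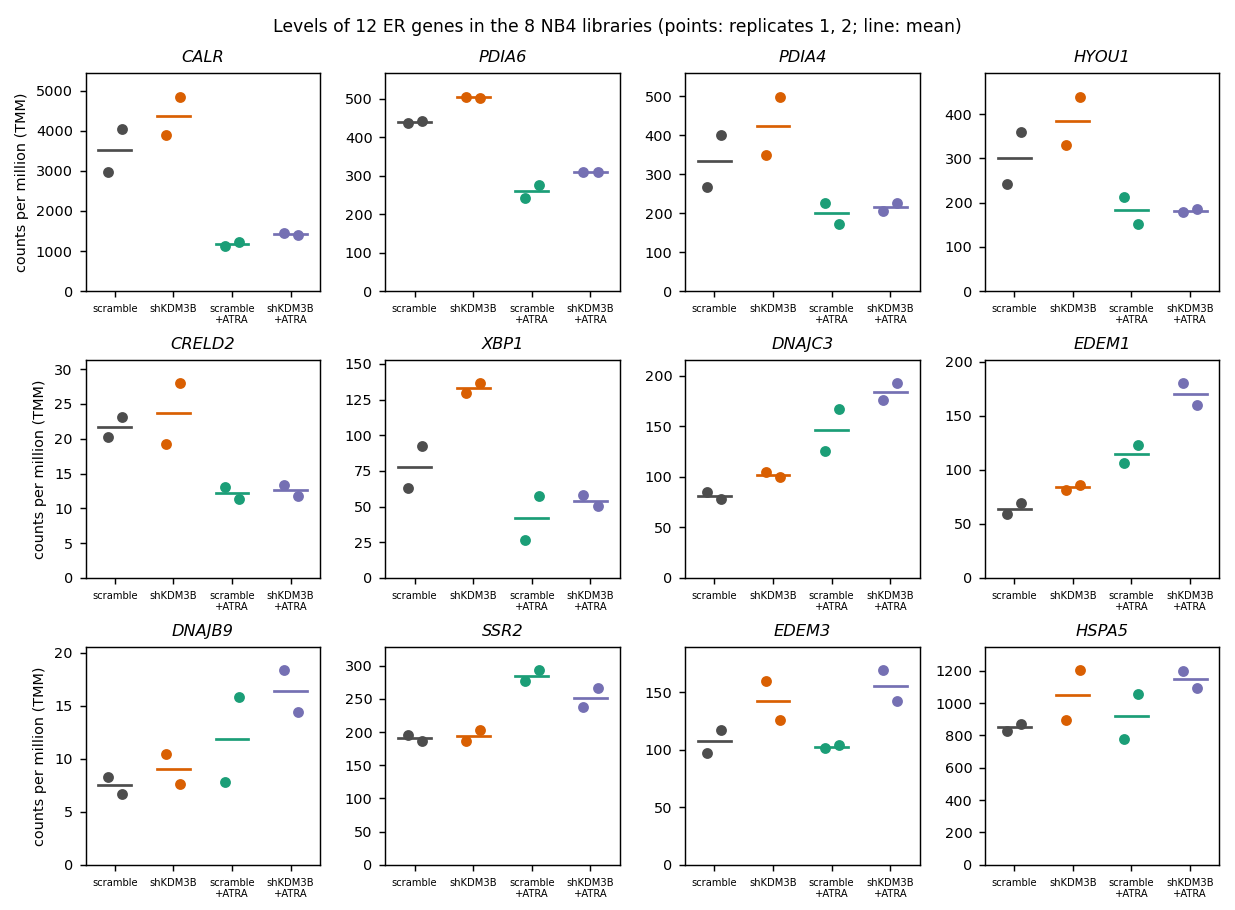
Levels in TMM-scaled CPM, on linear axes that start at 0, of the 11 members called in any comparison and of HSPA5; each point is 1 of the 2 libraries of a group and the line is their mean. CALR, PDIA6, PDIA4, HYOU1 and CRELD2 sit lower in both ATRA groups than in both untreated groups, DNAJC3 and EDEM1 sit higher, and HSPA5 overlaps between the untreated and the ATRA group of either cell type.

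HSPA5, HSP90B1, DNAJB9, HERPUD1 and MANF, which are also targets of the unfolded protein response, gave no call in scramble cells. HSPA5 was at 827 and 872 CPM without ATRA and at 778 and 1059 with it, so that the treated libraries lay on either side of the untreated ones. Its log2 fold change was 0.15 ± 0.22 (SE), with an edgeR adjusted p of 0.718. HSP90B1 was at 1430 and 1258 CPM without and 993 and 1064 with ATRA, a log2 fold change of -0.35 ± 0.19 with an edgeR adjusted p of 0.293. The HSP90B1 groups did not overlap, but the difference did not pass. DNAJB9, a BiP co-chaperone that keeps IRE1 inactive, was at 8.28 and 6.67 CPM without and 7.85 and 15.9 with ATRA. HERPUD1, which helps to assemble the ERAD ubiquitin ligase, was at 26.5 and 23.2 CPM without and 25.7 and 37.7 with ATRA. MANF, a secreted regulator of BiP, was at 55.1 and 84.3 CPM without and 56.5 and 77.7 with ATRA. In each of these 3 genes the groups overlapped, and the edgeR adjusted p was between 0.334 and 0.977. Without scramble+ATRA replicate 1, DNAJB9 and HERPUD1 were among 8 members called higher, where 21.4% of all tested genes were.

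The sensors gave no call either. ERN1, the IRE1 kinase and RNase that splices XBP1, was at 7.43 and 6.29 CPM in scramble and 8.21 and 6.46 with ATRA. EIF2AK3, the PERK kinase that slows translation, was at 17.6 and 15.7 against 18.6 and 20.1 CPM, and ATF6, a membrane-bound transcription factor, at 71.5 and 77.9 against 77.1 and 71.1 CPM. Their log2 fold changes were 0.13 ± 0.34 (SE), 0.25 ± 0.25 and 0.02 ± 0.20, none past the threshold. XBP1 was at 63.0 and 92.6 CPM in scramble and at 26.8 and 57.5 with ATRA. Both treated libraries were below both untreated ones, but they differed from each other more than 2-fold, and the log2 fold change of -0.85 ± 0.39 had an unadjusted P of 0.0637 in edgeR and an adjusted p of 0.209. The lower of the treated libraries, replicate 1, was the one with the low share of reads outside genes. XBP1 was called lower with DESeq2, with library size alone, with no low-count filter, with all 8 libraries in one fit and without scramble+ATRA replicate 2.

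**Figure D2:**
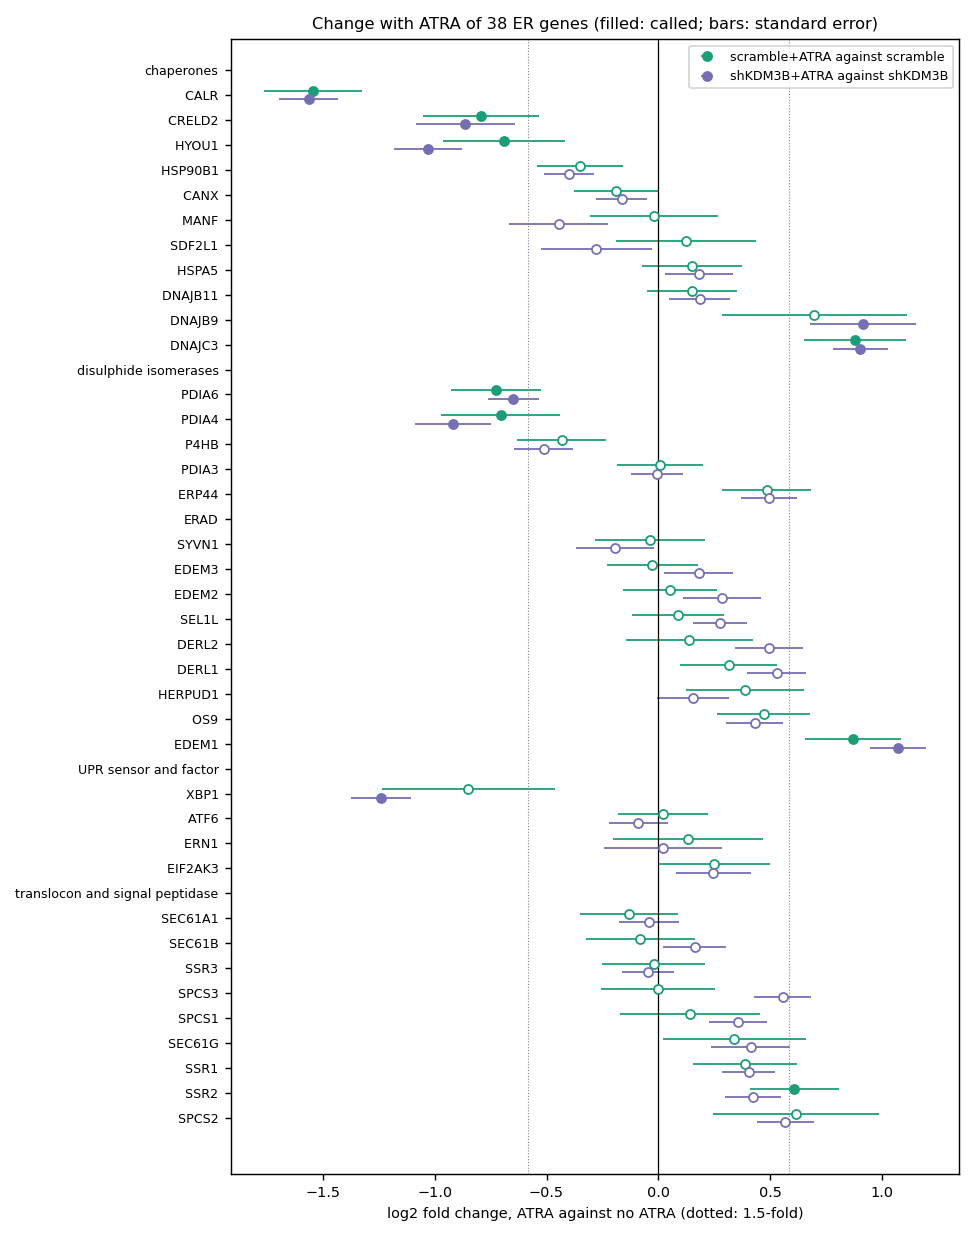
Log2 fold changes with ATRA of the 38 tested members, in scramble cells (green) and shKDM3B cells (purple), grouped by role; bars are standard errors, filled points were called, and the dotted lines mark 1.5-fold. The chaperones range from CALR at -1.54 to DNAJC3 at 0.88 in scramble cells, while most ERAD and translocon genes sit near or above 0.

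In shKDM3B cells ATRA lowered CALR, XBP1, HYOU1, PDIA4, CRELD2 and PDIA6 and raised EDEM1, DNAJB9 and DNAJC3. Of 38 tested members 6 were lower and 3 higher, against 18.3% and 24.0% of 12756 tested genes, and 6 and 3 of 38 are 15.8% and 7.89%. All 9 passed at an adjusted p under 0.05, where the shares over all genes were 17.3% and 23.0%. The median log2 fold change was 0.17 over the members and 0.04 over all tested genes. Both libraries with ATRA had over 50% of reads outside genes and both without had under 10%, which cannot be told apart from the treatment here.

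CALR was at 3895 and 4854 CPM in shKDM3B and at 1444 and 1410 in shKDM3B+ATRA. As in scramble cells the groups were far apart, and the fall was 2.96-fold, a log2 fold change of -1.56 ± 0.13 (SE) with an edgeR adjusted p of 1.3e-05. XBP1 was at 129 and 136 CPM without and at 58.0 and 50.3 with ATRA. Here the replicates were close, and the fall was 2.36-fold, a log2 fold change of -1.24 ± 0.13 with an edgeR adjusted p of 6e-05. HYOU1 was at 330 and 440 CPM without and 179 and 185 with ATRA, a log2 fold change of -1.03 ± 0.15 with an edgeR adjusted p of 0.000443. PDIA4 was at 349 and 499 CPM without and 207 and 227 with ATRA, a log2 fold change of -0.92 ± 0.17 with an edgeR adjusted p of 0.00169. Both genes fell to below the lower of their untreated libraries, which were the more variable ones. CRELD2 was at 19.3 and 27.95 CPM without and 13.4 and 11.8 with ATRA, a log2 fold change of -0.86 ± 0.22 with an edgeR adjusted p of 0.00968, and PDIA6 at 505 and 501 against 310 and 309 CPM, a log2 fold change of -0.65 ± 0.11 with an edgeR adjusted p of 0.00118. Leaving out shKDM3B replicate 2 took CRELD2 to -0.57, under 1.5-fold, and no other of these 6 calls ended when a library was left out.

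EDEM1 rose from 81.5 and 86.2 to 180 and 160 CPM, 2.10-fold, with a log2 fold change of 1.07 ± 0.13 (SE) and an edgeR adjusted p of 0.000107. DNAJC3 rose from 105 and 99.9 to 176 and 192 CPM, a log2 fold change of 0.90 ± 0.12 with an edgeR adjusted p of 0.000264. DNAJB9 rose from 10.4 and 7.64 to 18.3 and 14.4 CPM, a log2 fold change of 0.91 ± 0.24 with an edgeR adjusted p of 0.0102. In all 3 genes both treated libraries were above both untreated ones. The call of DNAJB9 (0.86) ended with all 8 libraries in one fit, where its unadjusted P was 0.0544. HSPA5 was at 893 and 1202 CPM without and 1198 and 1095 with ATRA, and these overlapped. By P alone, 22 of 38 members (57.9%) and 56.7% of all tested genes were under an unadjusted 0.05 in edgeR, so the members were near the rest. Of these, 13 members had less than a 1.5-fold difference, among them SPCS2 (0.57), SPCS3 (0.56), DERL1 (0.53), P4HB (-0.51) and HSP90B1 (-0.40), given as log2 fold changes.

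The 2 ATRA comparisons share no library. All 5 members called lower in scramble cells (100%) were called lower in shKDM3B cells, where they made 83.3% of 6. Over all 11968 genes tested in both, the shared lower calls were 84.8% of those in scramble and 47.6% of those in shKDM3B cells. Of the higher members 2 of 3 (66.7%) were shared in each list, against 82.3% and 61.1% of the higher calls over all genes. The sign was the same for 32 of 38 members (84.2%) and for 82.8% of all genes, so the members were near the rest in this respect. The difference between the responses was tested as an interaction in edgeR over all 8 libraries. No member passed, with 0 of 38 at an unadjusted P under 0.05 where 4.49% of 13528 genes did, and 0 genes at an adjusted p under 0.05. The estimates for the members ran from -0.44 ± 0.44 (SE) for MANF to 0.54 ± 0.29 for SPCS3, a subunit of signal peptidase, on the log2 scale. For CALR the estimate was -0.04 ± 0.25, for DNAJB9 0.20 ± 0.53 and for XBP1 -0.40 ± 0.49. The XBP1 estimate depended on the scramble+ATRA libraries, and without replicate 1 of that group it was -0.85 with an unadjusted P of 0.0162. Without replicate 2 of that group SPCS3 (0.83) and SPCS1 (0.72), also of signal peptidase, were under an unadjusted P of 0.05.

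By their medians the members with an ERSE lay lower than the rest with ATRA. In scramble cells 3 of these 7 genes fell with ATRA and 0 rose, their median log2 fold change was -0.73 and 6 of 7 were lower by sign, the exception being HSPA5. Over all tested genes 10.8% fell and 15.0% rose. Of the 28 tested members whose promoter window held none, 2 fell and 3 rose, with a median of 0.13. In shKDM3B cells 4 of the 7 fell, XBP1 included, and 0 rose, with a median of -0.65, and of the other 28 genes 2 fell and 3 rose, with a median of 0.22, beside 18.3% and 24.0% of all tested genes. These counts describe 7 genes and were not tested, and HYOU1 and PDIA4 fell without an ERSE in their windows.

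Much of the difference in the summed level of the members was CALR. The 40 genes summed to 12373 and 13979 CPM in scramble, 14162 and 16373 in shKDM3B, 9474 and 10202 in scramble+ATRA and 10943 and 10895 in shKDM3B+ATRA. CALR alone was 24.1 and 29.0% of the members' counts in scramble, 27.5 and 29.7% in shKDM3B, and between 11.8 and 13.2% in the 4 treated libraries. Without CALR the sums were 9390 and 9926 CPM in scramble and 8353 and 8969 with ATRA, and 10267 and 11518 CPM in shKDM3B and 9499 and 9485 with ATRA. The treated libraries were still the lower ones in each pair of groups, by a smaller margin. As these are bulk samples scaled to a common total, less mRNA per cell and fewer cells of a kind cannot be told apart.

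**Figure D3:**
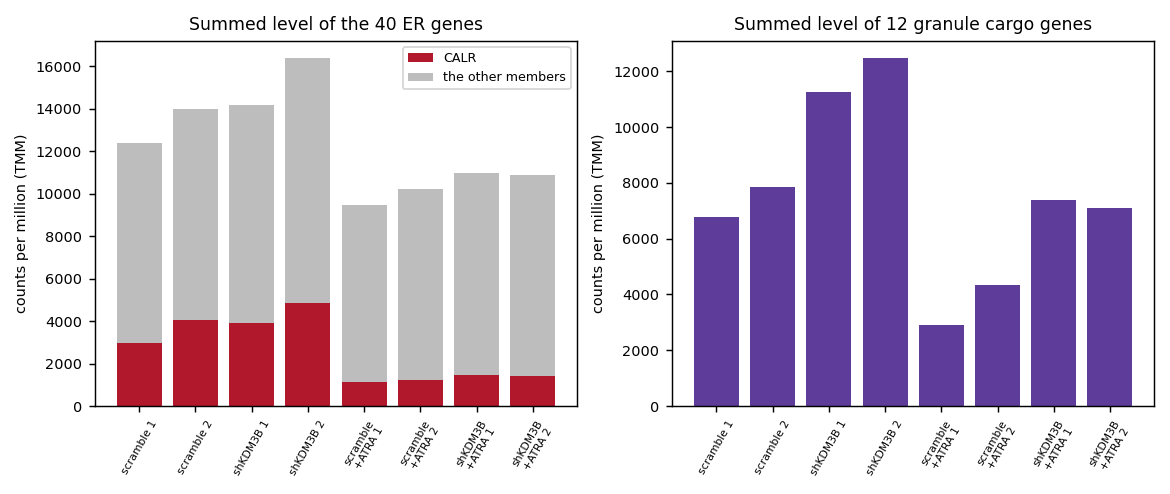
Left, summed level of the 40 members in each of the 8 libraries in TMM-scaled CPM, with the part that is CALR in red. Right, the summed level of the 12 genes of the granule cargo list, MS4A3 and PLAC8 included, in the same unit. The CALR part drops to between 11.8 and 13.2% of the members' counts in the 4 ATRA libraries.

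KDM3B silencing without ATRA gave 1 call among the members. XBP1 rose, from 63.0 and 92.6 CPM in scramble to 129 and 136 in shKDM3B. The groups did not overlap, and the log2 fold change was 0.77 ± 0.20 (SE), 1.71-fold, with an unadjusted P of 0.00432 and an edgeR adjusted p of 0.206. It was 1 of 38 tested, and 0 were called lower, against 3.48% and 3.53% of 13855 tested genes, and DESeq2 gave the same counts. By P alone, 3 of 38 members (7.89%) were under an unadjusted 0.05 in edgeR, against 10.2% of all tested genes, the other two being EDEM1 (0.39) and EDEM3 (0.41) by log2 fold change. Without scramble replicate 1 XBP1 was at 0.52, under 1.5-fold, and with all 8 libraries in one fit its P was 0.059. Without scramble replicate 2 XBP1 was at 1.08 and was joined by PDIA4 and HYOU1, where 6.73% of all genes were higher. The median log2 fold change was 0.08 over the members and 0.00 over all genes.

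By role, 9 of the 11 chaperones were higher by sign in shKDM3B cells, with a median log2 fold change of 0.16, and 6 of the 9 translocon and signal peptidase genes were lower by sign, with a median of -0.15. Over all 13855 genes 6922 were lower by sign. With ATRA 6 of the same 9 translocon and signal peptidase genes were higher by sign in shKDM3B cells, with a median of 0.05. Of the 11 chaperones 8 were higher by sign with ATRA, also with a median of 0.05. Over all 14281 genes tested there, 7579 were higher by sign. Without ATRA, CALR (0.31), HSPA5 (0.30), HYOU1 (0.36), PDIA4 (0.35) and P4HB (0.35) had log2 fold changes of about the same size, and none passed the test. With ATRA the same genes were at 0.28, 0.33, 0.00, 0.12 and 0.25 in that order, and none passed either. The level of MPO was 4285 and 5343 CPM in scramble and 8339 and 9518 in shKDM3B, and its part in the difference of the ER genes was not tested.

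**Figure D4:**
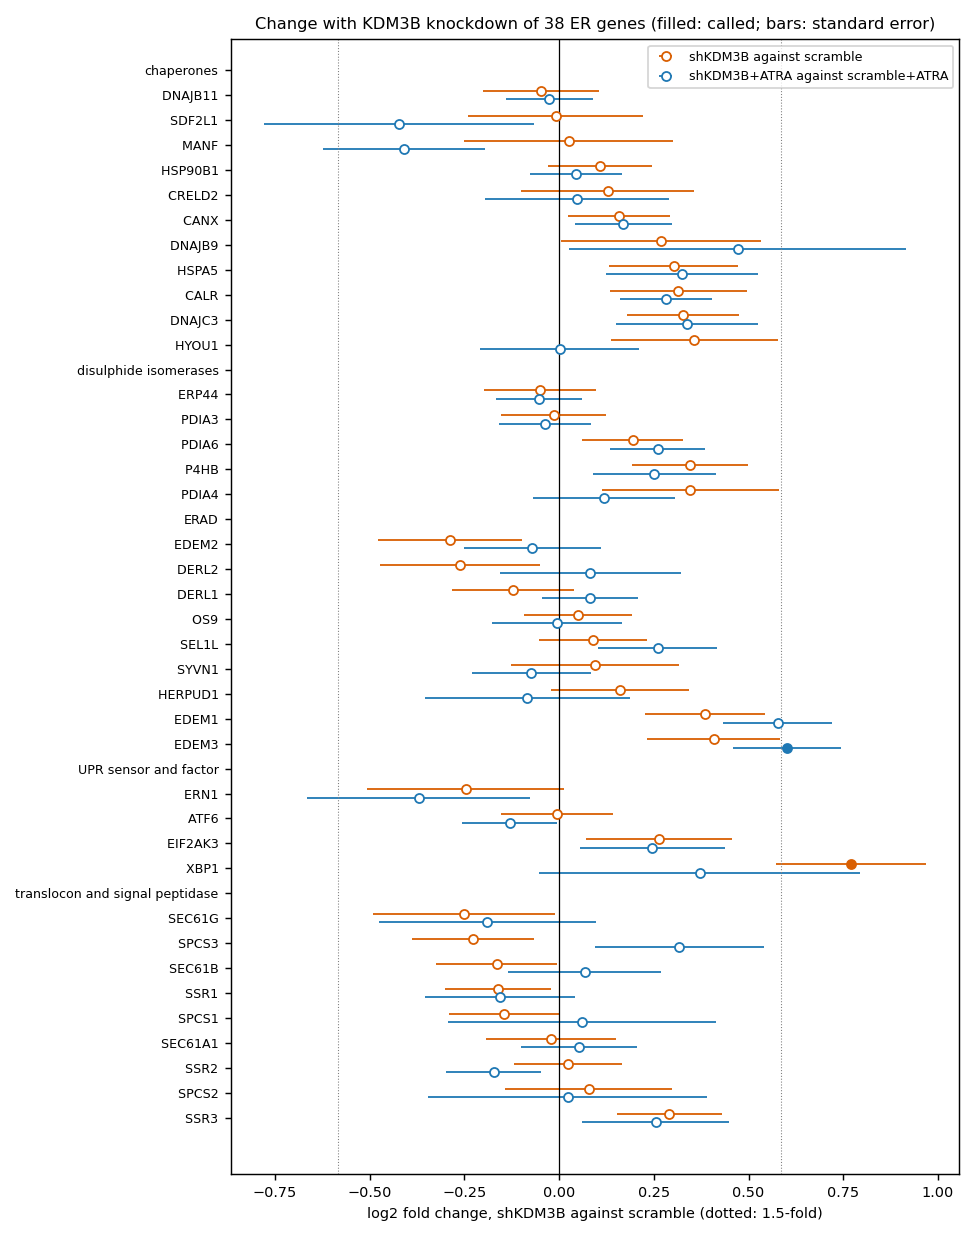
Log2 fold changes with KDM3B silencing of the 38 tested members, without ATRA (orange) and with ATRA (blue), grouped by role; bars are standard errors, filled points were called and the dotted lines mark 1.5-fold. XBP1 (0.77) is the filled point without ATRA and EDEM3 (0.60) the filled point with ATRA.

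With ATRA, 1 member was called higher in shKDM3B+ATRA than in scramble+ATRA and 0 lower, against 2.42% and 4.37% of 14281 tested genes, and DESeq2 gave the same counts. The member was EDEM3, a mannosidase of ERAD, at 101 and 105 CPM in scramble+ATRA and 169 and 142 in shKDM3B+ATRA. The groups did not overlap, and the log2 fold change was 0.60 ± 0.14 (SE), 1.52-fold, with an unadjusted P of 0.0158 and an edgeR adjusted p of 0.502. EDEM1 was at 106 and 123 CPM against 180 and 160, a log2 fold change of 0.58 ± 0.14, which is 1.49-fold, with an unadjusted P of 0.0191 in edgeR. These were the 2 of 38 members (5.26%) with an unadjusted P under 0.05 in edgeR, against 9.68% of all tested genes. Without shKDM3B+ATRA replicate 1 EDEM3 was at 0.47 and without replicate 2 at 0.73, both with a P over 0.05. The 2 scramble+ATRA libraries differed in the share of reads outside genes. Without replicate 1, which leaves the 3 libraries near 50%, EDEM3 was at 0.59 and was the 1 member higher, while SDF2L1, a chaperone partner, and MANF were lower, against 8.78% of all genes higher and 8.19% lower. Without replicate 2, 6 members were higher, namely DNAJB9, EDEM1, EDEM3, XBP1, SPCS1 and SPCS3, while 23.2% of all genes were higher. The median log2 fold change was 0.06 over the members and 0.03 over all genes, and without replicate 2 these medians were 0.15 and 0.07.

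Several translocon and signal peptidase genes differed widely between the scramble+ATRA libraries. SPCS2 was at 71.5 and 140 CPM there, SPCS1 at 71.5 and 136, SEC61G at 50.9 and 84.4 and SPCS3 at 134 and 194. In each the higher value was that of replicate 2, with the high share of reads outside genes, and the part of that share was not tested. In shKDM3B+ATRA the replicates of SPCS2 were at 109 and 105 CPM and those of SPCS1 at 101 and 114. SEC61A1, the channel itself, was at 306 and 378 CPM in scramble and 335 and 276 with ATRA, a log2 fold change of -0.13 ± 0.22 (SE). In SPCS1, 56.6% of the exon length overlaps exons of the opposite strand, in SSR3 20.8% and in OS9 16.6%, and reads of the 2 strands cannot be told apart without a stranded count.

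The other genes of the pathway came from lists that do not include the members. Among 16 tested regulators of the response, 2 rose and 1 fell with ATRA in scramble cells, and 3 rose and 3 fell in shKDM3B cells. These are 12.5% and 6.25% beside 15.0% and 10.8% of all tested genes in scramble cells, and 18.8% each beside 24.0% and 18.3% in shKDM3B cells, so the counts were near or under the background. DDIT3, the pro-apoptotic factor CHOP of the PERK branch, was at 11.7 and 9.73 CPM in scramble and 24.3 and 31.3 with ATRA, a log2 fold change of 1.41 ± 0.27 (SE) with an edgeR adjusted p of 0.0156. CREB3L2, an ER-bound transcription factor of the secretory pathway, was at 128 and 134 CPM against 386 and 304, a log2 fold change of 1.43 ± 0.22 with an edgeR adjusted p of 0.00618. Both rose in shKDM3B cells too, by log2 fold changes of 1.59 each. TRIB3, a pseudokinase induced by ATF4 and CHOP, fell instead, from 53.3 and 85.5 to 33.0 and 44.5 CPM, a log2 fold change of -0.81 ± 0.30 with an edgeR adjusted p of 0.133. In shKDM3B cells it fell from 65.7 and 111 to 16.6 and 26.9 CPM, a log2 fold change of -1.97 with an edgeR adjusted p of 0.000379, and the difference between the 2 falls did not pass (unadjusted P of 0.0556 in edgeR). In shKDM3B cells the others called were CREB3 (0.79), higher, and BBC3 (-2.47) and PPP1R15A (-0.70), lower. BBC3, the pro-apoptotic BH3-only protein PUMA, was at 3.72 and 5.58 CPM in scramble, 4.54 and 4.52 in scramble+ATRA, 5.29 and 7.06 in shKDM3B and 0.737 and 1.41 in shKDM3B+ATRA. The interaction for BBC3 was -2.48 ± 0.57 (SE) on the log2 scale, with an unadjusted P of 0.00314 and an edgeR adjusted p of 1, and it was also lower in shKDM3B+ATRA than in scramble+ATRA (-2.06, edgeR adjusted p of 0.502).

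Of 23 other folding genes 3 rose and 2 fell in scramble cells with ATRA, and 4 rose and 5 fell in shKDM3B cells. These are 13% and 8.70% beside 15.0% and 10.8% of all tested genes in scramble cells, and 17.4% and 21.7% beside 24.0% and 18.3% in shKDM3B cells, so the counts were near the background. Among those called in scramble cells the largest by log2 fold change were TMX4 (-1.15), a membrane-bound thioredoxin-like protein, and FKBP14 (1.06), a peptidyl-prolyl isomerase, both past an edgeR adjusted p of 0.05 (0.0197 and 0.0261). In shKDM3B cells the largest was TXNDC5 (-2.20), a disulphide isomerase at 1.96 to 3.03 CPM without and 0.211 to 0.804 with ATRA, with an edgeR adjusted p of 0.00908. In scramble cells it was at -1.57 and not called (unadjusted P of 0.0568). SIL1 (0.87), a BiP exchange factor, and FKBP2 (0.84) also rose in scramble cells by the unadjusted rule. FKBP2 was at 32.1 and 34.5 CPM in scramble, 65.0 and 51.4 in scramble+ATRA, 31.1 and 34.3 in shKDM3B and 35.81 and 35.77 in shKDM3B+ATRA. In shKDM3B cells its log2 fold change was 0.18 and not called, it was lower in shKDM3B+ATRA than in scramble+ATRA (-0.70, edgeR adjusted p of 0.502), and its interaction of -0.68 ± 0.22 (SE) had an unadjusted P of 0.019 and an edgeR adjusted p of 1. Of 13 other ERAD genes UBE2J1 (0.87), an ER ubiquitin-conjugating enzyme, rose, with an edgeR adjusted p of 0.0391. Of 10 oligosaccharyltransferase subunits KRTCAP2 (1.47) rose, with an edgeR adjusted p of 0.0136, and of 13 other signal recognition and translocation genes SEC11A (0.75), the signal peptidase catalytic subunit, and SEC62 (0.62) rose, with adjusted p-values of 0.115 and 0.175. The medians over these 4 lists, in that order, were 0.00, -0.17, -0.10 and 0.30 in log2 fold change, beside 0.02 over all tested genes. In shKDM3B cells 1 of the 13 ERAD genes rose and 1 fell, 1 of the 10 oligosaccharyltransferase subunits rose and 2 fell, and 4 of the 13 signal recognition and translocation genes rose and 0 fell. In that order the shares were 7.69, 10 and 30.8% higher and 7.69, 20 and 0% lower, beside 24.0% and 18.3% of all tested genes. The median log2 fold changes in shKDM3B cells were 0.02 over the other folding genes, -0.17, -0.05 and 0.37 over these 3 lists and 0.04 over all tested genes. The subunit that rose was again KRTCAP2 (1.31), and those that fell were RPN1 (-0.64) and OST4 (-1.07), with edgeR adjusted p-values of 0.00293 and 0.000277. OST4, a small subunit, was at 61.5 and 62.0 CPM in scramble, 60.55 and 39.56 in scramble+ATRA, 57.0 and 62.8 in shKDM3B and 27.07 and 28.03 in shKDM3B+ATRA. It was also lower in shKDM3B+ATRA than in scramble+ATRA (-0.86, edgeR adjusted p of 0.506), and its interaction of -0.82 ± 0.29 (SE) had an unadjusted P of 0.0252 and an edgeR adjusted p of 1. Among the genes of these lists and the regulators, BBC3, FKBP2 and OST4 were the only ones with an unadjusted interaction P under 0.05 in edgeR. Over all 13528 genes the share was 4.49%.

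Most genes of a granule cargo list fell. The list also held MS4A3 and PLAC8, which are not granule cargo. Of its 10 tested genes, 7 fell (70%) and 1 rose (10%) with ATRA in scramble cells, beside 10.8% and 15.0% of all tested genes. The median log2 fold change was -2.36. MS4A3 (-4.76) was among the 7, and the 1 that rose was PLAC8 (0.95). In shKDM3B cells 7 of 9 fell (77.8%) and 1 rose (11.1%), beside 18.3% and 24.0% of all tested genes, with a median of -2.09. MPO went from 4285 and 5343 to 730 and 616 CPM, a log2 fold change of -2.81 ± 0.21 (SE) with an edgeR adjusted p of 0.000416. In shKDM3B cells it went from 8339 and 9518 to 3128 and 2221 CPM, a log2 fold change of -1.69 ± 0.16 with an edgeR adjusted p of 3.1e-05. The interaction for MPO was 1.10 ± 0.28 (SE) on the log2 scale, with an unadjusted P of 0.00524 in edgeR, and it did not pass after adjustment. SRGN, the proteoglycan serglycin that packs granule proteins, was at 2039 and 2032 CPM in scramble and 2056 and 3545 in scramble+ATRA (log2 fold change 0.50, not called). In shKDM3B cells it rose from 2516 and 2523 to 4173 and 4784 CPM, a log2 fold change of 0.88 ± 0.12 (SE) with an edgeR adjusted p of 0.000226. The sum over the 12 genes of the list was 6780 and 7859 CPM in scramble, 2924 and 4340 in scramble+ATRA, 11281 and 12479 in shKDM3B and 7396 and 7114 in shKDM3B+ATRA. MPO and SRGN made 93.3 to 98.7% of this sum in every library, so the sum does not describe the other genes of the list. In shKDM3B against scramble cells without ATRA, 1 of 11 tested genes of the list was called higher and 1 lower (9.09% each), beside 3.48% and 3.53% of all tested genes. With ATRA, 2 of 8 were higher (25%), MPO and MS4A3 (1.32), and 1 was lower (12.5%), beside 2.42% and 4.37%. By sign 4 of 11 and 4 of 8 were lower, beside 6922 of 13855 and 6702 of 14281 genes. MPO was higher both times (0.89 and 1.995 by log2 fold change), and RNASE2, a granule ribonuclease, was lower both times (-0.79 and -1.25).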

How the data were processed

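NB4 RNA-seq libraries were grouped by the labels. Per the labels and the paper's methods, the authors aligned reads to hg38 with HISAT2 and counted them on genes with HTSeq. The deposited values are whole-number counts per gene without normalization. The untreated and the treated files list different gene names, and the 37526 shared ones were used. HTSeq's summary lines, 29.8 to 62.2% of each file's total, were left out. Each pair of groups was fitted on its own with edgeR 4.0.16 in R 4.3.3 (filterByExpr, TMM, quasi-likelihood F test, Benjamini-Hochberg adjustment over all tested genes). The standard error is the size of the log2 fold change divided by the square root of F. The interaction used all 8 libraries. Alternatives were DESeq2 1.42.0, other scalings, no filter, all 8 libraries in one fit, a replicate block and each library left out. With a library left out, a lone library was assumed to vary like the other group. Exon lengths came from GENCODE v44 and promoters from RefSeq, GRCh38.p14. The fits were tested on simulated data. Named genes were every called member, the main targets and sensors, and up to 4 called genes of each other list by size. The members and lists were chosen with earlier results of these data known.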

Additional observations from a re-analysis of the deposited data

How the results depend on the processing

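Depth was 9708739 to 33017787 counts per library, with 2 libraries per group, about 50% of reads outside genes in 3 of the 4 ATRA libraries and gene lists that differed with ATRA. Their parts in the precision were not compared. Of the alternatives to the log2 fold changes of called members, 163 kept the direction and the call, 27 kept the direction only and 0 changed sign.

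The number of members called higher in shKDM3B against scramble was 1, and 0 with all 8 libraries in one fit. Over all genes the shares higher were 3.48% and 2.31%. In shKDM3B+ATRA against scramble+ATRA the number was 1, and 2 with library size alone, where the shares over all genes were 2.42% and 2.87%. Leaving out 1 library at a time gave 0 to 3 higher in the first of these comparisons and 0 to 6 higher and 0 to 2 lower in the second. Over all genes the share higher ran from 3.21 to 6.73% and from 0.265 to 23.2% at these settings. It gave 0 to 8 higher and 1 to 5 lower in scramble+ATRA against scramble, 3 to 5 higher and 5 to 8 lower in shKDM3B+ATRA against shKDM3B, and 0 to 2 members with an interaction P under 0.05. Over all genes the shares were 6.79 to 21.4% higher and 4.11 to 17% lower in scramble cells, and 20.6 to 25.1% higher and 16.7 to 21.1% lower in shKDM3B cells. The members' median log2 fold change was 0.0626 in shKDM3B against scramble with library size alone. In shKDM3B+ATRA against shKDM3B it was 0.16 with DESeq2's size factors and with DESeq2, 0.12 with library size alone and with all 8 libraries in one fit, and 0.14 with no filter. With 1 library left out the medians ran from -0.0041 to 0.132 in shKDM3B against scramble, from 0.038 to 0.154 in shKDM3B+ATRA against scramble+ATRA, from -0.086 to 0.151 in scramble+ATRA against scramble and from 0.064 to 0.181 in shKDM3B+ATRA against shKDM3B. The cause was not tested, apart from the smaller number of libraries.

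The labels name no batch shared by libraries of the same replicate number. Deviations of same-numbered libraries were correlated at 0.389 over 12535 genes in shKDM3B against scramble. The correlation was 0.0261 in shKDM3B+ATRA against scramble+ATRA, -0.0731 in scramble+ATRA against scramble and 0.183 in shKDM3B+ATRA against shKDM3B. Whether the untreated libraries of the same number share a source of variation was not tested, and the main fits did not include one. With the replicate block, scramble+ATRA against scramble had 2 members higher and 4 lower in place of 3 and 5. The unadjusted P-values of PDIA4, HYOU1 and SSR2 in edgeR were then 0.0568, 0.0646 and 0.0553, while XBP1 joined the lower members. Over all genes 13.3% were higher and 9.91% lower with the block, against 15.0% and 10.8% without it. The block left the members' counts of the other comparisons as they were.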
